A study of Homo sapiens with 10 samples.

Results

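IL24 and the chains of its receptors were followed through BEAS2B cells, an immortalised line of human bronchial epithelium, after 3 miRNAs had been raised or blocked. The 5 genes, IL24, IL20RA, IL20RB, IL22RA1 and IL10RB, were taken by symbol from the 52402 gene symbols of the count data. IL24 had been picked because its level is high with the miR-92b inhibitor and with the 3 miRNAs together, so it was chosen by its measured level in those groups, and its values there and in the control are a description and carry no test. The 4 receptor chains were named for their role, but with earlier results of these data known.

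All groups were BEAS2B cells transfected with Lipofectamine 2000, each with 2 libraries. The miRcontrol group received a scrambled miRNA, miR3124_mimic the miR-3124-5p mimic, miR200b_mimic the miR-200b-3p mimic, and miR92b_inhibitor an inhibitor of miR-92b. The final concentration was 50 nM and RNA was taken at 48 h. The 3-miRNA mixed group received the 2 mimics and the inhibitor, in amounts that the methods do not state. The arm of miR-92b that the inhibitor blocks is not named in the labels, and nothing states whether the 2 libraries of a group came from separate transfections, so the p-values may measure only technical spread.

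IL24 is a secreted cytokine of the IL-10 family that is known as a suppressor of tumor cell growth. It signals through pairs of receptor chains, IL20RA with IL20RB or IL22RA1 with IL20RB, which act through JAK kinases and STAT3. IL10RB is the shared second chain of the receptors for IL-10, IL-22, IL-26 and the lambda interferons, where it pairs with IL22RA1 to bind IL-22. Epithelial cells are the best known responders, IL24 inside a producing cell has also been tied to stress of the endoplasmic reticulum, and its mRNA carries AU-rich elements that bind proteins controlling its decay.

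The mature miRNAs are shown because a seed and the word in mRNA that pairs with it are what could place a member among the direct targets of a transfected miRNA. Capitals mark the seed, bases 2 to 8, in the RefSeq sequences of GRCh38.p14, and both arms of miR-92b are given.
hsa-miR-3124-5p: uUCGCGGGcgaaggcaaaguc
hsa-miR-200b-3p: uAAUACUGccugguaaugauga
hsa-miR-92b-5p: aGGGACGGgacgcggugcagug
hsa-miR-92b-3p: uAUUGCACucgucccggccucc
No seed is shared among the 4. The words that pair with them are CCCGCGA for miR-3124-5p, CAGTATT for miR-200b-3p, CCGTCCC for miR-92b-5p and GTGCAAT for miR-92b-3p. Among 18977 genes with an annotated 3′UTR (GENCODE v29), 0.622% hold CCCGCGA, 16.1% hold CAGTATT, 3.78% hold CCGTCCC and 10.9% hold GTGCAAT there.

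The coding transcripts of the members were searched on their own strand for these 4 words. The matches follow, with the word in capitals and 8 bases on each side.
IL24 3′UTR: attaatgtCAGTATTtcaactga
IL20RA coding sequence, first match: acactgtgCAGTATTtcatatat
IL20RA coding sequence, second match: acgaacacCAGTATTatgccaaa
IL20RB 3′UTR: atgtatgtGTGCAATgcgacgag
IL10RB coding sequence: cttataatGTGCAATactggaaa
In GRCh38 the words lie at chr1:206903312-206903318 in IL24, at chr6:137016972-137016978 and chr6:137011352-137011358 on the minus strand in IL20RA, at chr3:137010961-137010967 in IL20RB and at chr21:33279886-33279892 in IL10RB. The IL24 word was in 4 of the 5 coding transcripts searched, but the IL10RB word was in 1 of 3 and not in the longest of them. That longest IL10RB transcript is mostly 3′UTR, 1865 of 2132 bases, and has little coding sequence in which the word could lie. The longest IL20RA transcript held only 1 of the matches listed. None of the words was found in IL22RA1, and CCCGCGA and CCGTCCC were found in no member. A match is a description of the sequence, not a measured site.

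IL24 (ENSG00000162892.15) lies on the plus strand of chromosome 1, from 206897443 to 206904139 in GRCh38. Each level is in normalized CPM, the counts of a gene scaled to the library total and to edgeR's RLE factor. IL24 stood at 3.72 and 3.64 CPM in the miRcontrol libraries. It stood at 6.42 and 7.13 CPM in miR3124_mimic, and at 3.96 and 4.31 CPM in miR200b_mimic. In miR92b_inhibitor its level was 21.6 and 23.8 CPM, and in the 3-miRNA mixed group 19.8 and 21.5 CPM. Every library with the inhibitor, alone or in the mixture, lay above every library without it, and the miR3124_mimic libraries lay above those of miRcontrol and miR200b_mimic. The raw counts behind these levels were 65 and 61 in miRcontrol, against 358 and 400 in the 3-miRNA mixed group and 370 and 434 in miR92b_inhibitor.

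The mean level of IL24 was 3.68 ± 0.0563 CPM in miRcontrol (SD, n = 2 libraries, as for each mean below). It was 22.7 ± 1.53 in miR92b_inhibitor, a 6.15-fold difference with a log2 fold change of 2.62 (SE 0.15). In the 3-miRNA mixed group it was 20.7 ± 1.22, which is 5.60-fold the control and a log2 fold change of 2.49 (SE 0.15). The mimics showed smaller differences from miRcontrol, 0.88 (SE 0.17) on the log2 scale in miR3124_mimic and 0.18 (SE 0.19) in miR200b_mimic. The value for miR200b_mimic was smaller than its standard error.

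The 3-miRNA mixed group stood slightly below miR92b_inhibitor, by -0.13 on the log2 scale (SE 0.10). Their libraries did not overlap, but the highest of the mixed group (21.5) and the lowest of miR92b_inhibitor (21.6) were nearly equal. The log2 fold changes of the 3 single treatments summed to 3.68, while the mixed group reached 2.49. All of these values share the miRcontrol libraries.

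One contrast for IL24 does not involve the groups that led to its choice, that between the mimics. IL24 was lower in miR200b_mimic (4.14 ± 0.249 CPM) than in miR3124_mimic (6.77 ± 0.502 CPM), by a log2 fold change of -0.71 with SE 0.17 (adjusted p = 0.000257, edgeR's quasi-likelihood test, Benjamini-Hochberg adjusted over 14884 genes). This contrast called 57.8% of all genes tested, so a call in it is common. The plot of levels in each library shows the order of the groups for IL24 and the receptor chains.

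**Figure D1:**
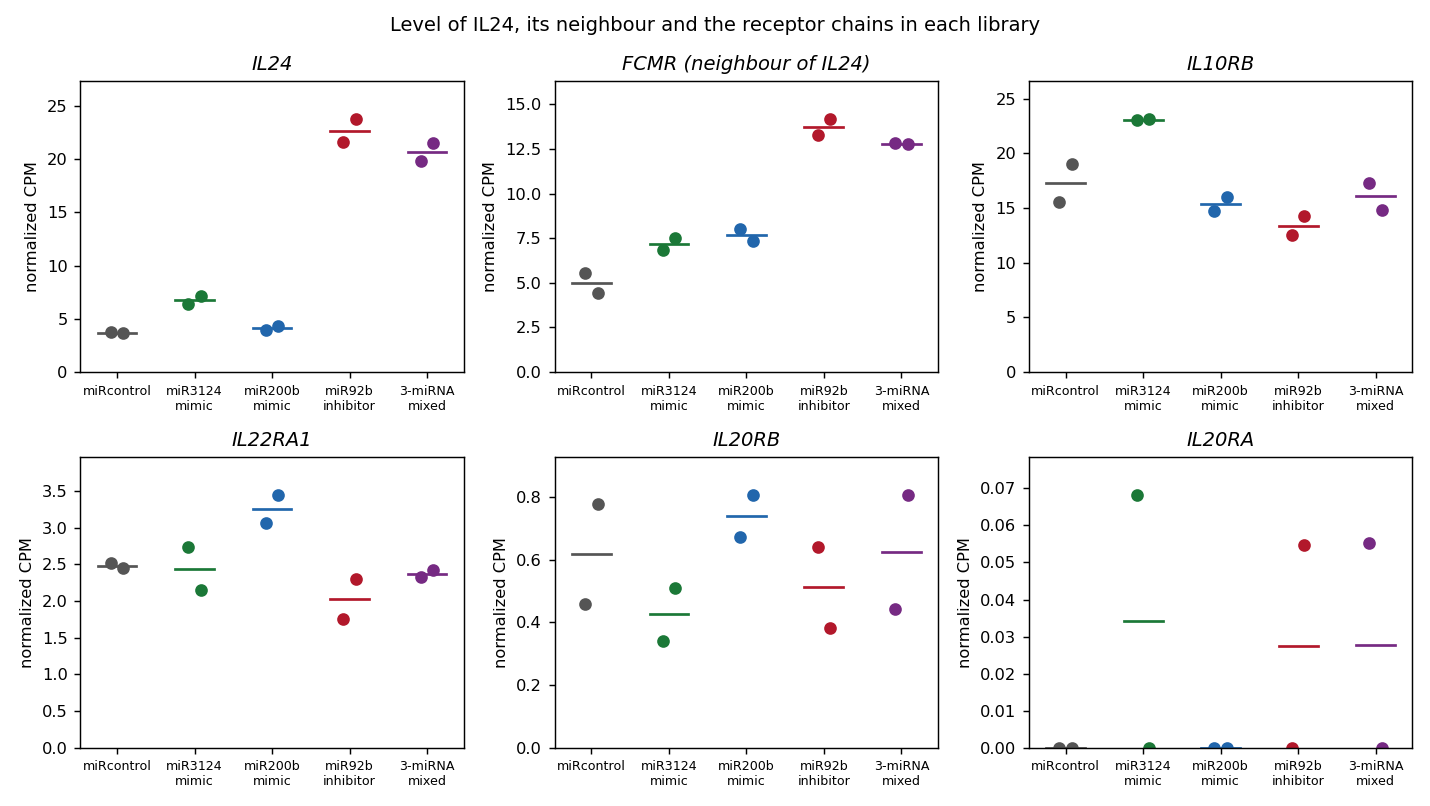
Normalized CPM (vertical axes, linear from 0) of IL24, its neighbour FCMR and the 4 receptor chains in each of the 10 libraries. Points are libraries and bars are the means of the 2 libraries of a group. IL24 lies between 19.8 and 23.8 CPM in the 4 libraries with the inhibitor and at 7.13 CPM or less in the others. IL20RA is at 0 in 7 libraries and stands on 1 read in each of the other 3.

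FCMR, the receptor for the Fc part of IgM that is known from lymphocytes, lies next to IL24 and is transcribed towards it from the minus strand. In GENCODE v29 it spans 206904386 to 206923247 and ends 247 bases beyond IL24. In the RefSeq annotation of GRCh38.p14 it begins at 206903317, so that 823 bases are shared by both genes. The library kit keeps strand, but no source used here states whether strand or which annotation was used in counting, so reads of the IL24 3′ end and of FCMR may not be told apart.

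FCMR stood at 5.55 and 4.42 CPM in miRcontrol, 6.83 and 7.52 in miR3124_mimic, and 8.0 and 7.36 in miR200b_mimic. It stood at 13.3 and 14.2 CPM in miR92b_inhibitor and at 12.8 in both libraries of the mixed group. Its libraries with the inhibitor were above all the others, as for IL24. The log2 fold changes against miRcontrol were 0.53, 0.61, 1.46 and 1.36 for miR3124_mimic, miR200b_mimic, miR92b_inhibitor and the mixed group (SE 0.14 to 0.16), and no test is given because its reads may be shared with the gene that was picked. Between the mimics, where IL24 differed, FCMR did not pass the test (0.09, SE 0.15, adjusted p = 0.643 by edgeR's quasi-likelihood test, Benjamini-Hochberg adjusted).

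FCMR is known as a gene of immune cells, so 8 immune markers were read in the same libraries. Their summed level was 40.1 and 42.2 CPM in miR92b_inhibitor, 24.7 and 26.0 in the mixed group and 27.5 and 28.6 in miRcontrol. The mimics gave 36.3 and 36.4 (miR3124_mimic) and 18.1 and 20.4 CPM (miR200b_mimic). The sum was highest with the inhibitor alone, while in the mixed group, where IL24 was also high, it lay below miRcontrol. Most of it was CD68, a lysosomal protein that is not limited to immune cells, at 17.3 to 40.7 CPM. CD14 reached 12.7 CPM, in miR3124_mimic. Its means elsewhere were 1.12 (miRcontrol), 0.417 (miR200b_mimic), 1.27 (miR92b_inhibitor) and 1.88 CPM (mixed group). PTPRC, CD3E, CD4 and CD8A had at most 2 counts in any library, ITGAM had at most 5, and HLA-DRA had 0, which allows up to 0.224 CPM in the shallowest library at a limit of 3 counts (counting error only). The T-cell markers were thus at or near 0 in every group. The part of CD68 and CD14 in the IL24 and FCMR values was not tested.

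The other genes around IL24 on chromosome 1q32 were taken as a list of 14 besides FCMR. IL10, IL19 and IL20, the cytokine genes of the same cluster, had at most 3 counts in any library and were not tested, nor were PIGR and FCAMR. Of the 9 neighbours tested, 4 rose and 1 fell with the inhibitor alone, and 7 rose and 1 fell in the mixed group. In miR3124_mimic 4 rose and 3 fell, and in miR200b_mimic 7 rose and 1 fell. Over all genes tested, 25.7% rose and 25.3% fell with the miR-3124-5p mimic, 21.4% and 19.1% with the miR-200b-3p mimic, 17.5% and 18.2% with the inhibitor, and 21.5% and 21.1% in the mixture, which is the background for this and the later lists. Their median log2 fold changes were 0.34, 0.56, 0.18 and 0.85 for miR3124_mimic, miR200b_mimic, miR92b_inhibitor and the mixed group, the order kept wherever 4 values stand together. The medians of all genes tested lay within 0.01 of 0. Without the second miRcontrol library, 3 in place of 5 neighbours were called in miR92b_inhibitor.

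Their order over the groups was not that of IL24. YOD1, a deubiquitinase, had log2 fold changes of 1.94, 0.56, 0.35 and 1.34, each past the test. C1orf116 rose by 4.16 in miR200b_mimic and 1.93 in the mixed group and had -0.42 in miR92b_inhibitor (adjusted p = 0.325, edgeR's quasi-likelihood test). IKBKE, an IκB kinase, rose by 1.02 in the mixed group and had 0.13 in miR92b_inhibitor (adjusted p = 0.351, same test). The largest value among the 9 neighbours in miR92b_inhibitor was 0.35, that of YOD1.

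**Figure D2:**
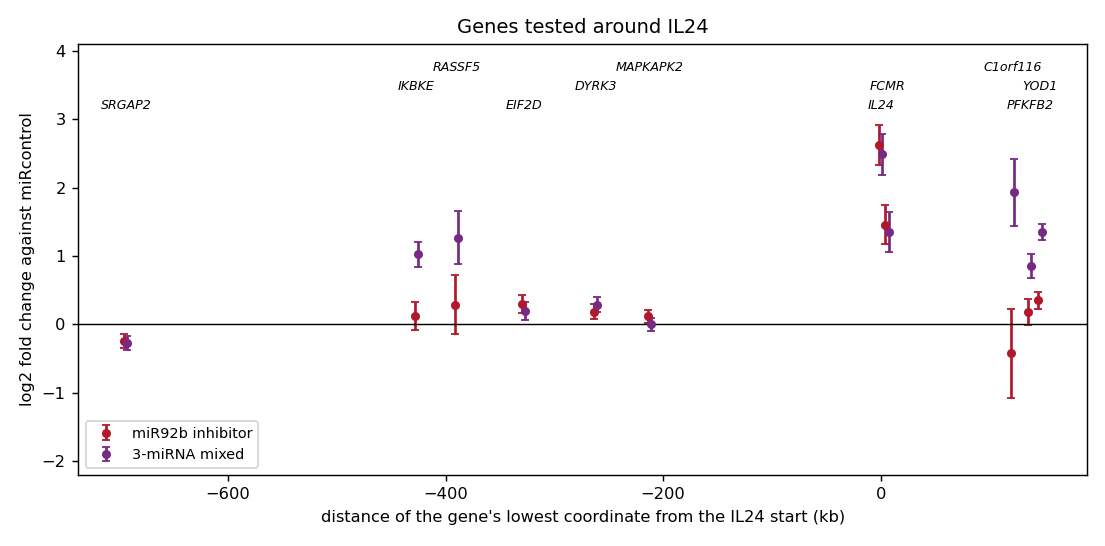
Log2 fold change against miRcontrol (vertical axis) of IL24, FCMR and the 9 tested neighbours by distance from the IL24 start in kb (horizontal axis), for miR92b_inhibitor and the 3-miRNA mixed group. Bars are 95% intervals. Those of IL24 and FCMR are a description and carry no test. IL24 was picked by its level in these groups, and FCMR may share its reads. IL24 and FCMR stand at 2.62 and 1.46 in miR92b_inhibitor, and the other genes at 0.35 or less.

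IL20RA, the first chain of the receptor that IL24 shares with IL-19 and IL-20, was all but absent from the counts. It lies on the minus strand of chromosome 6 from 136999971 to 137045180 (ENSG00000016402.13). It had 3 counts in the 10 libraries together, 1 each in a library of miR3124_mimic, miR92b_inhibitor and the mixed group. That equals 0.0177 CPM over all libraries, with an exact Poisson 95% interval of 0.00365 to 0.0518 that covers counting error only. A limit of 3 counts in a library corresponds to 0.161 to 0.224 CPM. No fold change is given, and IL20RA was the only member that did not pass the filter on low counts.

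IL20RB, the chain that both IL24 receptors need, was low in every group. It spans chromosome 3 from 136946230 to 137011085 on the plus strand (ENSG00000174564.12), where NCK1 and the antisense gene IL20RB-AS1 overlap it. It had 8 and 13 counts in miRcontrol (0.458 and 0.776 CPM), 11 and 7 in miR92b_inhibitor (0.642 and 0.383 CPM) and 8 and 15 in the mixed group (0.442 and 0.807 CPM). The mimics gave 5 and 9 counts for miR3124_mimic (0.341 and 0.509 CPM) and 9 and 14 for miR200b_mimic (0.673 and 0.805 CPM). The libraries of each transfected group overlapped those of miRcontrol.

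None of the 10 contrasts between groups, which called from 35.7% to 58.8% of all genes (38.6% between the mixed group and miR200b_mimic), was called for IL20RB, where 0 had an unadjusted p under 0.05, DESeq2 called 0 of the 5 for which it gave an adjusted p, and the adjusted p was 0.246 or more in each (edgeR's quasi-likelihood test, Benjamini-Hochberg adjusted). The log2 fold changes against miRcontrol were -0.50, 0.28, -0.27 and 0.03 for miR3124_mimic, miR200b_mimic, miR92b_inhibitor and the mixed group. Their 95% intervals were wide, from -1.69 to 0.69 in miR3124_mimic and from -1.04 to 1.09 in the mixed group. They reached 1.34 in miR200b_mimic and -1.39 in miR92b_inhibitor. At this depth, differences of more than 1 on the log2 scale thus remain possible in each group.

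IL22RA1, which joins IL20RB to bind IL24 and IL10RB to bind IL-22, is on the minus strand of chromosome 1 from 24119771 to 24143121 (ENSG00000142677.3). It stood at 2.52 and 2.45 CPM in miRcontrol, 2.73 and 2.15 in miR3124_mimic, and 3.07 and 3.45 in miR200b_mimic. It stood at 1.75 and 2.30 CPM in miR92b_inhibitor and at 2.32 and 2.42 in the mixed group. The miR200b_mimic libraries were above all the others and those of miR92b_inhibitor lay at the lower end, where they were below both miRcontrol libraries but overlapped miR3124_mimic.

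Against miRcontrol no group passed the test for IL22RA1, with log2 fold changes of -0.04, 0.40, -0.29 and -0.07 (SE 0.25 to 0.27) and adjusted p of 0.922, 0.218, 0.438 and 0.869 (edgeR's quasi-likelihood test, Benjamini-Hochberg adjusted). The 95% interval of the difference in miR92b_inhibitor ran from -0.83 to 0.25. Ordered by their means, the groups ran from miR92b_inhibitor (2.02) through the mixed group (2.37), miR3124_mimic (2.44) and miRcontrol (2.48) to miR200b_mimic (3.26), and no neighbours in that order differed (adjusted p from 0.218 to 0.940 by edgeR).

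The ends of that order did. IL22RA1 was lower in miR92b_inhibitor than in miR200b_mimic by a log2 fold change of -0.69 (SE 0.26, adjusted p = 0.0244 by edgeR's quasi-likelihood test, Benjamini-Hochberg adjusted), in a contrast that called 50.5% of all genes tested. The call was lost with DESeq2's Wald test (adjusted p = 0.110, in a range of 0.0175 to 0.180 over all settings tried), and without the second miR200b_mimic or the first miR92b_inhibitor library.

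IL10RB was the most abundant of the receptor chains and the only one called against miRcontrol. It spans chromosome 21 from 33266358 to 33310187 on the plus strand (ENSG00000243646.9) and overlaps AP000295.1, an annotated gene that runs from IFNAR2 into it. Its level was 15.5 and 19.0 CPM in miRcontrol, 23.0 and 23.1 in miR3124_mimic, and 14.7 and 16.0 in miR200b_mimic. In miR92b_inhibitor it was 12.5 and 14.2 CPM, and in the mixed group 17.3 and 14.8. Both miR3124_mimic libraries lay above all the others and both miR92b_inhibitor libraries lay below all the others, while miR200b_mimic and the mixed group overlapped miRcontrol.

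IL10RB rose in miR3124_mimic by 0.42 on the log2 scale (SE 0.10, adjusted p = 0.000576, edgeR's quasi-likelihood test, Benjamini-Hochberg adjusted). It fell in miR92b_inhibitor, with a log2 fold change of -0.36 (SE 0.11, adjusted p = 0.00786, same edgeR test). In miR200b_mimic the value was -0.16 (adjusted p = 0.259) and in the mixed group -0.10 (adjusted p = 0.463, same edgeR test), with 95% intervals of -0.39 to 0.06 and -0.32 to 0.11. Both calls were lost on leaving out a library. Without the first miRcontrol library the value in miR3124_mimic was 0.28 (adjusted p = 0.0622 by edgeR, the highest of a range that begins at 0.000180). Without the second miRcontrol library or the first miR92b_inhibitor library the value in miR92b_inhibitor was -0.21 (adjusted p = 0.259 by edgeR) or -0.28 (adjusted p = 0.120), in a range of adjusted p from 0.00210 to 0.259 over all settings.

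IL10RB was thus the member called among the 3 receptor chains tested in miR3124_mimic, where 51.0% of all genes were called, and in miR92b_inhibitor, where 35.7% were. In miR200b_mimic and the mixed group 0 of the 3 chains were called, against 40.6% and 42.7% of all genes, and 0 had an unadjusted p under 0.05 or a call by DESeq2. With 3 genes tested, these counts are not apart from the background.

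Between the transfected groups, IL10RB in miR3124_mimic stood above each of the others. The log2 differences from miR3124_mimic were -0.58 in miR200b_mimic (adjusted p = 7.41e-06), -0.78 in miR92b_inhibitor (adjusted p = 1.65e-08) and -0.52 in the mixed group (adjusted p = 3.07e-05, edgeR's quasi-likelihood test, Benjamini-Hochberg adjusted), and none of these calls was lost on leaving out a library. These contrasts called 57.8%, 58.8% and 49.1% of all genes. In ascending order miR92b_inhibitor, miR200b_mimic, the mixed group and miRcontrol did not differ between neighbours (adjusted p = 0.145, 0.728 and 0.463 by edgeR).

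IL24 and IL10RB thus went different ways with the inhibitor: IL24 was highest in miR92b_inhibitor and IL10RB lowest. In the mixed group IL24 stayed near its level with the inhibitor alone, while IL10RB was 0.26 above it on the log2 scale (SE 0.11, adjusted p = 0.0588 by edgeR's quasi-likelihood test, Benjamini-Hochberg adjusted, in a contrast that called 39.6% of all genes). The plot of receptor changes sets these differences beside those of IFNLR1.

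**Figure D3:**
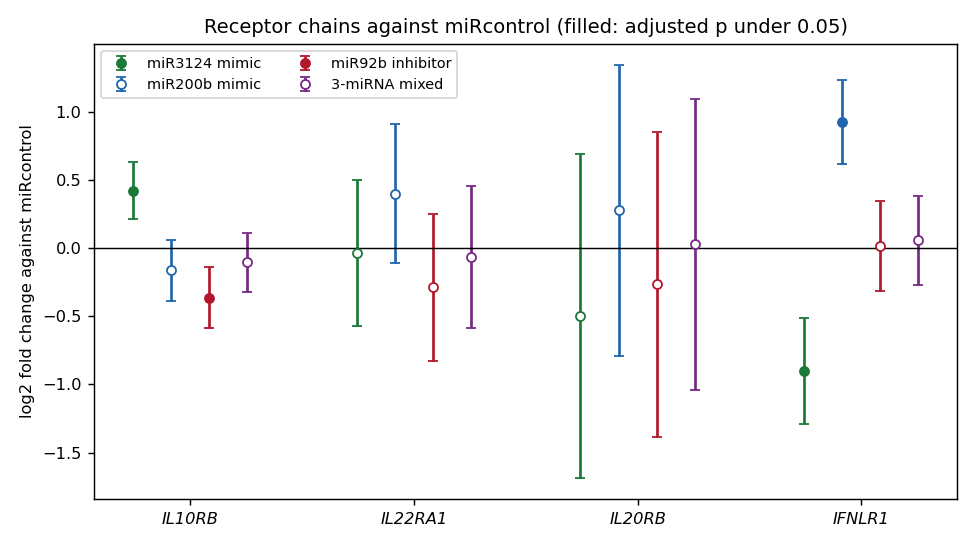
Log2 fold change against miRcontrol (vertical axis) of the 3 tested receptor chains and IFNLR1 in the 4 transfected groups, with 95% intervals. Filled points have an adjusted p under 0.05. IL10RB is filled at 0.42 in miR3124_mimic and -0.36 in miR92b_inhibitor, no point of IL22RA1 or IL20RB is filled, and IFNLR1 is filled at -0.90 in miR3124_mimic and 0.92 in miR200b_mimic.

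Levels of different genes can be set side by side only per length, here as CPM per kb of the longest annotated transcript. In miRcontrol IL10RB had 8.10, IL24 2.02, IL22RA1 0.887, IL20RB 0.301 and IL20RA 0 CPM per kb. In miR92b_inhibitor IL24 was first with 12.5 CPM per kb and IL10RB second with 6.28. When the merged length of all exons was used instead, IL10RB in miRcontrol had 3.80 CPM per kb and the order was the same. IL20RB, the chain shared by both IL24 receptors, stood below IL24 on this scale in every group, at the RNA level only.

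The relatives of IL24 and of its receptors were read as fixed lists. Of the 9 other cytokines of the family and the lambda interferons (IL10, IL19, IL20, IL22, IL26 and IFNL1 to IFNL4), none passed the filter on low counts. IL24 was the only ligand of these receptors above that filter. IL10RA and IL22RA2 were also at or near 0.

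Of the 5 related receptor chains tested, 1 fell with the inhibitor alone and 1 rose in the mixed group. In miR3124_mimic 2 rose and 1 fell, and in miR200b_mimic 1 rose and 1 fell, or 1 in all without its second library. IFNLR1, the chain that joins IL10RB to bind lambda interferons, stood at 6.01 and 5.67 CPM in miRcontrol, 3.41 and 2.89 in miR3124_mimic, and 10.9 and 11.2 in miR200b_mimic. It fell by 0.90 in miR3124_mimic and rose by 0.92 in miR200b_mimic on the log2 scale. So in miR3124_mimic IFNLR1 fell where its partner IL10RB rose.

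IFNAR1, a chain of the type I interferon receptor encoded next to IL10RB on chromosome 21, rose by 0.46 in miR3124_mimic and by 0.14 in the mixed group. IFNAR2, whose annotated gene ends 683 bases before IL10RB, had log2 fold changes of 0.32, -0.17, -0.29 and -0.16, of which those of miR3124_mimic and miR92b_inhibitor passed the test. These are the groups in which IL10RB was called, in the same directions. IFNAR2 and IL10RB do not overlap each other, but AP000295.1 runs from one into the other. Reads of AP000295.1 may not be told apart from those of either gene, and its part in these changes was not tested. The single calls in miR92b_inhibitor and in the mixed group were lost with DESeq2's Wald test, which called 0 of the 5 in each, and on leaving out single libraries of miRcontrol or of the group itself.

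The JAK kinases and STATs pass the signal of these receptors to the nucleus. Of the 9 tested, 0 rose and 1 fell with the inhibitor alone, where 1 had an unadjusted p under 0.05 and DESeq2 called 1, and 3 rose and 3 fell in the mixed group. The mimics gave 5 that rose and 2 that fell for miR3124_mimic, and 2 and 1 for miR200b_mimic. The median log2 fold changes were 0.29, 0.04, -0.06 and -0.16. In miR92b_inhibitor, where IL24 was highest, 1 of 9 was called against 35.7% of all genes.

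STAT3, the main STAT of the IL24 receptors, rose by 0.64 in miR3124_mimic, 0.73 in miR200b_mimic and 0.48 in the mixed group, and had -0.06 in miR92b_inhibitor (adjusted p = 0.352 by edgeR). JAK1, a kinase bound by IL22RA1 and IL20RA, rose by 0.33 in miR3124_mimic and had -0.42 in miR200b_mimic, both past the test. TYK2, a kinase bound by IL10RB, had -0.43, -0.12, -0.38 and -0.51, and only the value of miR200b_mimic did not pass. The number called in miR200b_mimic was 5 in place of 3 without the second library of that group.

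**Figure D4:**
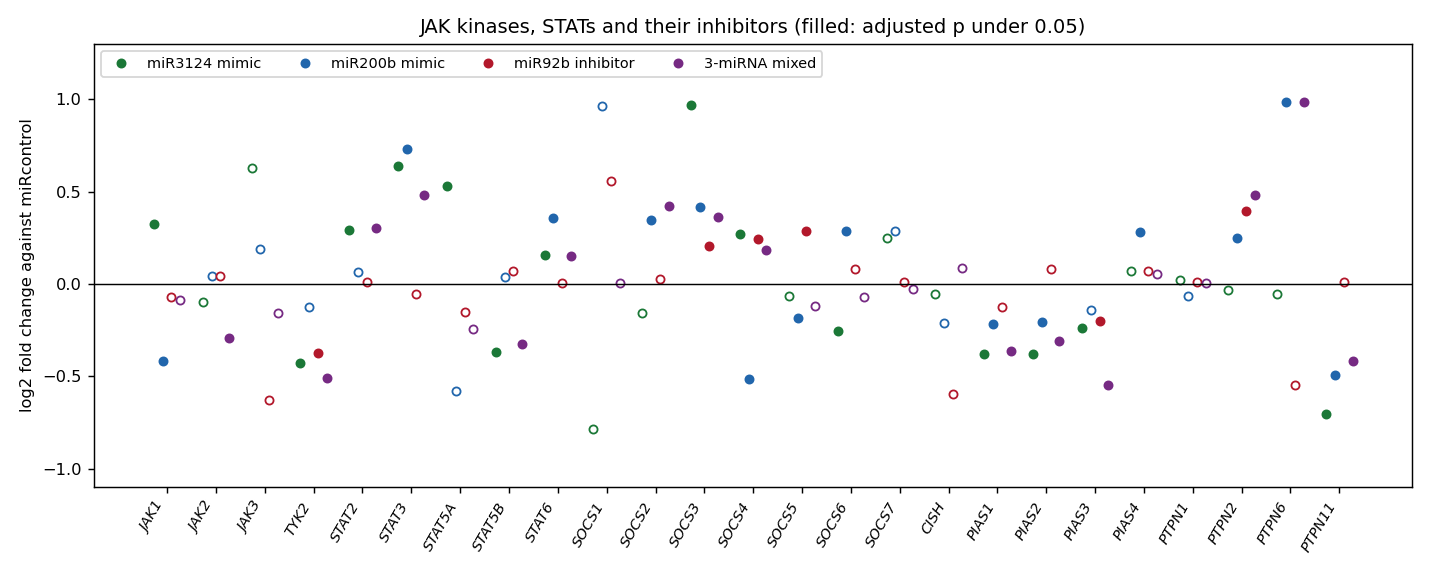
Log2 fold change against miRcontrol (vertical axis) of the 9 tested JAK kinases and STATs and of 16 of their inhibitors (horizontal axis) in the 4 transfected groups. Filled points have an adjusted p under 0.05. STAT3 is filled at 0.64, 0.73 and 0.48 but open at -0.06 in miR92b_inhibitor, and SOCS3 is filled in all 4 groups.

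Among 16 inhibitors of the pathway, 4 rose and 1 fell with the inhibitor of miR-92b alone, and 5 rose and 4 fell in the mixed group. The mimics gave 2 that rose and 5 that fell for miR3124_mimic, and 6 and 5 for miR200b_mimic. SOCS3, which STAT3 induces and which blocks JAK kinases, rose by 0.97, 0.42, 0.21 and 0.36 in the 4 groups. PTPN11, the phosphatase SHP2, had log2 fold changes of -0.70, -0.49 and -0.42 in miR3124_mimic, miR200b_mimic and the mixed group, each past the test, and 0.01 in miR92b_inhibitor. SOCS4 fell in miR200b_mimic, with -0.51, and rose by 0.27, 0.24 and 0.18 in the other groups. Without the first or the second miRcontrol library 7 in place of 11 inhibitors were called in miR200b_mimic, and without the second miRcontrol or the second miR92b_inhibitor library, or with DESeq2, 3 in place of 5 in miR92b_inhibitor.

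A list of 15 known STAT3 targets had 10 genes that rose and 2 that fell with the inhibitor alone, and 10 and 3 in the mixed group. The mimics gave 8 and 4 for miR3124_mimic, and 9 and 3 for miR200b_mimic. Their median log2 fold changes were 0.11, 0.24, 0.15 and 0.29. CCND1, cyclin D1, had -0.92, 0.15, 0.21 and -0.10, each past the test. BIRC5, an inhibitor of apoptosis that is high in dividing cells, fell in each group, with -0.75, -0.42, -0.25 and -0.66. IL6ST, the signal chain of the IL-6 receptor, rose by 0.53, 0.48 and 0.52 in miR3124_mimic, miR92b_inhibitor and the mixed group. Members of this list went in both directions in every group. In miR92b_inhibitor DESeq2 called 9 in place of 12. The lists share genes: STAT3 itself and SOCS3 of the inhibitors are also counted here, as are FOS, JUNB and CEBPD of the AP-1 and C/EBP families below.

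Genes tied to IL24 inside the cell, mainly the unfolded protein response and the stress kinases, were a list of 15 tested genes. In miR3124_mimic 2 rose and 6 fell, in miR200b_mimic 7 rose and 4 fell, in miR92b_inhibitor 9 rose and 5 fell, and in the mixed group 6 rose and 3 fell. The median log2 fold changes were -0.06, 0.10, 0.34 and 0.08. In miR92b_inhibitor edgeR called 14 of the 15 and DESeq2 called 11, where edgeR called 35.7% of all genes. The list was chosen with earlier results of these data known, so this count is a description and not independent support. Leaving out 1 library changed the count from 8 to 5 in miR3124_mimic (its first library) and from 11 to 7 or 6 in miR200b_mimic (the second miRcontrol library or its own second library).

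PPP1R15A, which directs a phosphatase to the translation factor eIF2α, rose by 1.35 in miR92b_inhibitor and 1.07 in the mixed group, with 0.12 in miR200b_mimic and -0.05 in miR3124_mimic. DDIT3, the stress transcription factor CHOP, rose by 1.40 and 0.71 with the inhibitor alone and in the mixture and had -0.29 and -0.46 in miR3124_mimic and miR200b_mimic. ATF4, which acts on both genes, rose by 0.63 and 0.37, and had -0.35 in miR3124_mimic and -0.02 in miR200b_mimic. HSPA5, the chaperone BiP of the same stress response, went the other way in miR92b_inhibitor, with -0.16, while it rose by 0.32 in miR200b_mimic and 0.35 in the mixed group.

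The transcription factors known from the IL24 promoter, of the AP-1 and C/EBP families, were also read. Of 9 tested, 6 rose and 1 fell with the inhibitor alone, and 5 rose and 1 fell in the mixed group. With the inhibitor alone DESeq2 called 5 in place of 7, and FOSB passed only narrowly (adjusted p = 0.0498 by edgeR's quasi-likelihood test). In miR200b_mimic 5 rose, and in miR3124_mimic 3 rose and 4 fell. The median log2 fold changes were -0.01, 0.32, 0.59 and 0.54. FOSL1 rose by 0.71 in miR92b_inhibitor and 0.37 in the mixed group, with -0.92 in miR3124_mimic. CEBPB rose by 0.86, 0.63 and 0.32 in miR92b_inhibitor, the mixed group and miR200b_mimic, with -0.54 in miR3124_mimic.

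FOS, at 0.687 to 4.42 CPM a low gene, rose by 1.67, 1.34, 1.83 and 2.64 in the 4 groups. JUND had -1.82 in miR3124_mimic, -0.52 in miR92b_inhibitor and -0.89 in the mixed group and rose by 0.25 in miR200b_mimic. Besides FOS, the genes that rose in miR3124_mimic were CEBPD, by 1.26, and JUNB, by 0.44. All of these are also on the list of STAT3 targets, so the rises counted in miR3124_mimic for that list and this one are not separate.

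The promoters of the members, from 250 bases before to 50 after the start (RefSeq, GRCh38.p14), were searched on both strands for an AP-1 word (TGANTCA), a STAT word (TTCNNNGAA) and TATAAA. Among 35116 promoters of that length 7.71% hold the first, 7.66% the second and 11.5% the third. The 3 matches are shown with the word in capitals. N stands for any base, which is A in the AP-1 word of IL22RA1. A match is thus to these letters and not to a measured site.
IL22RA1, AP-1 word from base -223: accacttgggaTGAATCAgccaccggacc
IL10RB, STAT word from base 11: tctccgctggTTCCCGGAAgccgccgcgg
IL20RA, TATAAA from base -32: gtggctggggacTATAAAtccgcgagaact
No match was found in the IL24 window, which says only that these letters are not in it.

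The genes whose pattern was most like that of IL24 were ranked by Pearson's r of log2 CPM over the 10 libraries, among 2498 genes with a mean of at least 1 CPM and group means at least 1 apart on the log2 scale. The 10 libraries share the groups that gave IL24 its pattern, so r describes likeness and has no p. In order, the 10 genes were LOC107986820, BCL2A1, CMYA5, TFPI2, IFI6, TMEM99, IL1B, LOC107986196, PPP1R15A and G0S2, with r from 0.969 to 0.935. FCMR came in place 14 with 0.932.

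All of them were higher in miR92b_inhibitor and the mixed group than in miRcontrol, as the measure requires. BCL2A1, an anti-apoptotic BCL2 relative, had log2 fold changes of 1.39, 0.67, 2.65 and 2.74 in miR3124_mimic, miR200b_mimic, miR92b_inhibitor and the mixed group. IL1B, the inflammatory cytokine IL-1β, went from 18.8 CPM in miRcontrol to 44.6 in miR92b_inhibitor and 37.9 in the mixed group, with 18.1 and 19.2 in the mimic groups. PPP1R15A, the most abundant of the 10, went from 139 CPM in miRcontrol to 353 and 290. TFPI2, a protease inhibitor, had 1.10 and 0.88 with the inhibitor alone and in the mixture and -0.02 and -0.29 with the mimics. IFI6, an interferon-induced gene, had 2.49 in the mixed group and 1.79 with the inhibitor alone. Its libraries in the mixed group lay far apart, at 1.99 and 2.86 above the miRcontrol mean on the log2 scale. Those of miR92b_inhibitor lay at 1.79 and 1.78.

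**Figure D5:**
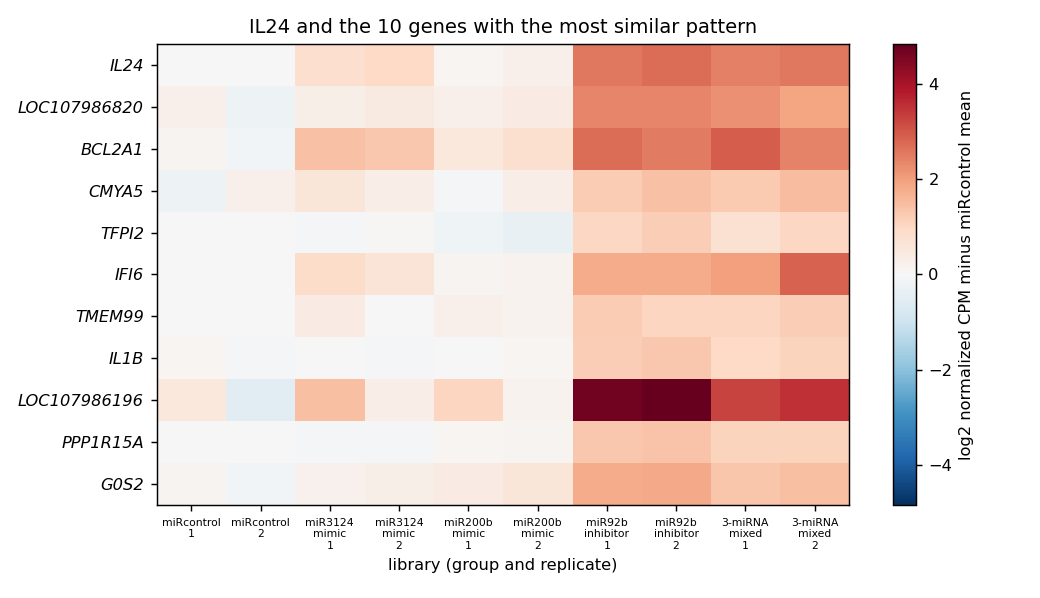
Log2 normalized CPM minus the miRcontrol mean (color) of IL24 and the 10 genes with the highest Pearson's r to it (rows) in the 10 libraries (columns). The 4 columns of miR92b_inhibitor and the 3-miRNA mixed group are the darkest in each row, with LOC107986196 at 4.73 and 3.38 as group values, and the mimic columns differ between rows.

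The cell line was read against markers of its label. Of 8 epithelial markers, KRT7, KRT8 and KRT18 carried most of the signal, while TP63 had at most 2 counts in any library and KRT5 at most 9. EPCAM and CDH1 had at most 8 and 7 counts outside miR200b_mimic and the mixed group. The summed epithelial markers were 2268 and 2220 CPM in miRcontrol, 2188 and 2098 in miR92b_inhibitor, 4188 and 4270 in miR200b_mimic and 4109 and 4081 in the mixed group. In miR3124_mimic they were 2774 and 2781 CPM. Single markers did not all follow the sum. Of 6 tested, 2 fell in miR92b_inhibitor and the other 4 did not pass the test, and 5 rose and 1 fell in the mixed group. In miR3124_mimic 2 rose and 1 fell, and in miR200b_mimic all 6 rose. KRT19, a keratin of simple epithelia, fell in miR92b_inhibitor and the mixed group, with log2 fold changes of -0.68 and -1.65. Its largest fall was in miR3124_mimic, with -3.40, and it rose by 0.82 in miR200b_mimic. The sum of 5 mesenchymal markers was 7355 and 7332 CPM in miRcontrol, 6986 and 6838 in miR92b_inhibitor and 4982 and 5001 in the mixed group. It was 4561 and 4436 CPM in miR3124_mimic and 4675 and 4620 in miR200b_mimic. Of these 5 markers, 1 rose and 3 fell in miR92b_inhibitor, and 2 rose and 3 fell in the mixed group. The mimics gave 2 that rose and 1 that fell for miR3124_mimic, and 1 and 4 for miR200b_mimic. VIM and FN1 carried most of this sum. VIM was the marker that rose with the inhibitor alone, by 0.16, while FN1 went from 3264 CPM in miRcontrol to 2429 in miR92b_inhibitor. COL1A1 and PDGFRB rose by 0.87 and 0.63 in the mixture. In miR3124_mimic VIM had -2.23, while COL1A1 and PDGFRB rose by 0.99 and 1.95. In the groups where IL24 was high, the epithelial sum was thus below that of miRcontrol with the inhibitor alone and above it in the mixture, and the mesenchymal sum was below it in both. The part of these markers in the IL24 values was not tested. Since these are bulk libraries, a change in the RNA of each cell and a change in the make-up of the culture cannot be told apart.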

How the data were processed

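Poly(A) RNA of BEAS2B cells was sequenced as paired ends from a directional kit. The authors trimmed the reads and mapped them with TopHat to GRCh38 (per the submitters' processing notes), and deposited whole-number read counts per gene without normalization. The counting tool and annotation are not given in the sources used here. Rows that repeat a symbol (5771 of 58173) were summed. Library totals were 13587666 to 18503890 counts, which is the depth behind every level. The libraries of a pair differed by more than counting error (chi-square per degree of freedom 1.75 to 2.63).

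Counts were fitted with edgeR 4.0.16 in R 4.3.3: filterByExpr (14884 genes), RLE factors (0.985 to 1.016), all 10 libraries in one quasi-likelihood fit with 5 group terms, and Benjamini-Hochberg adjustment over all genes of each of 10 contrasts. Genes were called at an adjusted p under 0.05. SEs used the posterior quasi-likelihood dispersion. Scripts were tested on simulated counts with known changes. Members and gene lists were chosen with earlier results of these data known. From the lists 2 genes were left out and are not reported here. Named besides the members were mostly list genes with the smallest p in any contrast with miRcontrol, and the 10 genes most like IL24. Some, among them IKBKE and KRT19, were named though other genes of their list had a smaller p. Alternatives were leaving out each library in turn, a replicate block, TMM, library totals, DESeq2 1.42.0, fits of 2 groups, no filter and a minimum of 10 counts in each library. limma 3.58.1 was loaded by edgeR. For log2 CPM a prior of 0.5 counts was added. Words were searched in GENCODE v29 transcripts, and miRNAs and promoters came from RefSeq.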

Additional observations from a re-analysis of the deposited data

How the results depend on the processing

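Of 262 values under other settings, 257 stayed the same by the rule for their kind. Tested fold changes kept their direction and side of the threshold, and untested IL24 fold changes moved by less than the spread of their libraries. Counts of genes stayed within a set ratio of the main count. The IL22RA1 difference between miR92b_inhibitor and miR200b_mimic (-0.69) was not called by DESeq2's Wald test. That of IL10RB between the mixed group and miR92b_inhibitor was called in a fit of those groups alone (0.27) and with at least 10 counts in every library (0.26). Of the 10 genes most like IL24, 4 were shared with a ranking by Spearman's rho and 4 with one by Euclidean distance. The cause was not tested. Of 400 values with 1 library left out, 378 stayed the same by these rules, 15 reversed, and 7 crossed the threshold.

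For IL10RB the log2 values with 1 library left out ran from 0.28 to 0.57 for miR3124_mimic against miRcontrol, from -0.51 to -0.21 for miR92b_inhibitor and from -0.25 to 0.047 for the mixed group, and for the mixed group from -0.059 to 0.16 against miR200b_mimic and from 0.14 to 0.37 against miR92b_inhibitor. For IL22RA1 they ran from -0.90 to -0.51 for miR92b_inhibitor against miR200b_mimic, from -0.21 to 0.14 for miR3124_mimic against miRcontrol and from -0.20 to 0.14 for the mixed group against miR3124_mimic. For IL20RB, which has few counts, they ran against miRcontrol from -0.055 to 0.69 for miR200b_mimic, from -0.67 to 0.15 for miR92b_inhibitor and from -0.47 to 0.44 for the mixed group, from -0.17 to 0.57 for miR92b_inhibitor against miR3124_mimic, and for the mixed group from -0.75 to 0.11 against miR200b_mimic and from -0.20 to 0.70 against miR92b_inhibitor. IL24 against miRcontrol ran from 2.55 to 2.69 in miR92b_inhibitor and from 2.42 to 2.55 in the mixed group.

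Libraries share replicate numbers, but the numbers do not pair them: deviations correlated at -0.0388 to 0.0589 between groups over 12900 genes. With the replicate number as a block, IL10RB had 0.42 in miR3124_mimic and -0.36 in miR92b_inhibitor, and no call of a member changed.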

Other observations

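Proteins that bind AU-rich elements, which control the decay of cytokine mRNAs, were a further list. The 3′UTR of IL24, of 1080 bases, holds 3 copies of ATTTA, a word found in 67.5% of 3′UTRs. Of 8 such genes tested, 6 fell in miR3124_mimic, 2 rose and 4 fell in miR200b_mimic, 2 rose and 1 fell in miR92b_inhibitor, and 1 rose and 5 fell in the 3-miRNA mixed group (edgeR's quasi-likelihood test, adjusted p under 0.05). ZFP36L1, which promotes decay, had log2 fold changes of -0.12, 0.82, 0.40 and 0.51, each past the test. ELAVL1, the stabilizing protein HuR, had -0.44, -0.02, 0.11 and -0.19, of which only that of miR200b_mimic did not pass. HNRNPD, known as AUF1, was lower in each group, with -0.41, -0.51, -0.10 and -0.36, and KHSRP had -0.39, -0.14, -0.06 and -0.19. In miR92b_inhibitor 1 of the 8 was called without either miRcontrol library or either of its own libraries, and in miR3124_mimic 3 were called without its first library.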
